A study of Homo sapiens with 2 samples.

Results

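The genes described here encode proteins of the splicing machinery: SR proteins, hnRNP proteins, proteins of the small nuclear ribonucleoprotein particles (snRNPs), and the SF3A, SF3B, PRPF and U2AF proteins. They were chosen by symbol, as all genes whose name begins with SRSF, HNRNP, SNRP, SNRNP, SF3A, SF3B, PRPF or U2AF, without hyphenated read-through names. This gave 76 of the 10987 genes in the deposited table, all of them protein coding in GENCODE 29. RNA sequencing was performed on 2 libraries, labelled as THP1 cells after 24 h of bort (1 library) and as untreated THP1 cells (1 library), to look for genes that differ after treatment. The THP1 line derives from a human monocytic leukaemia and carries an MLL rearrangement, and bort (bortezomib) inhibits the proteasome, which degrades proteins marked with ubiquitin. The dose used for sequencing is not given in the sample labels. Values are taken as FPKM, the unit in the header of the deposited table, although the name of the file speaks of raw counts. FPKM counts fragments relative to transcript length and to the size of the library. As each group holds 1 library, there is no replicate check of any difference, and what is compared throughout is a pair of libraries, not the conditions.

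The FPKM values summed to 210026 in the untreated library and to 221529 in the bort library, and the median gene was at 5.85 and 6.02 FPKM. Read depth is unknown. The 20 most abundant genes held 10.8% of the sum in the untreated library and 21.6% in the bort library. The lowest value that any listed gene had in its higher library was 0.501 FPKM. The levels of cell type markers went against the label of a monocytic line. All 10 erythroid markers looked up were listed, and together they summed to 3180 FPKM in the untreated and 3085 FPKM in the bort library. The most abundant was the fetal haemoglobin gene HBG1, at 1487 and 1536 FPKM. A list of 10 genes that mark monocytes and myeloid cells had 5 in the table, which summed to 20.3 FPKM in the untreated and 55.9 FPKM in the bort library. The most abundant of these was the lysozyme gene LYZ, at 7.61 and 28.7 FPKM, and the defining markers CD14, CSF1R, MPO, S100A8 and FCGR1A had no row in the table used here. The erythroid regulators were lower in the bort library, GATA1 at 161.3 FPKM untreated and 48.7 FPKM with bort, and KLF1 at 147.1 and 17.4 FPKM. The part of these markers in the results below was not tested, and libraries are named by their labels. The treatment label was looked at through 8 genes known to respond to proteasome inhibition, of which 7 were listed and all 7 were higher in the bort library. Among them the proteasome subunit genes ranged from PSMC4, at 103.9 FPKM untreated and 140.4 FPKM with bort, to PSMA1, at 27.3 and 76.5 FPKM. The heat shock gene HSPA1A was at 290.1 FPKM untreated and 1015 FPKM with bort.

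Splicing removes introns from pre-mRNA. The spliceosome is assembled stepwise on each intron: the U1 snRNP recognises the start of the intron, U2AF and the U2 snRNP recognise its end and the branch point, and the tri-snRNP of U4, U6 and U5 then joins to form the catalytic core. SR proteins mostly promote the use of exons they bind, hnRNP proteins coat nascent RNA and often oppose it, and the level of both kinds of protein shifts the choice between alternative exons.

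Most of the splicing factor genes were lower in the bort library. Differences are given as log2(FPKM + 1) in the bort library minus that in the untreated library, a scale on which the differences of genes at low FPKM come out too small. Of the 76 genes, 55 were lower and 21 higher, so that 72.4% were lower, against 49.7% of all genes in the table. By 1.5-fold or more, 33 (43.4%) were lower, against 21.6% of all genes, and 5 (6.58%) were higher, against 20.8%. By 2-fold or more, 6 (7.89%) were lower, against 10.2% of all genes, and 0 were higher, against 8.08%. As deposited, the share lower by 2-fold is thus near that of the whole table, while the share lower by 1.5-fold is above it. With the trend of the differences with the GC content of transcripts removed, 12 members (15.8%) were lower by 2-fold or more, against 6.11% of 10907 genes, and 61 (80.3%) were lower by any amount, against 49.5%. By 1.5-fold or more, 27 (35.5%) were then lower, against 17.1%, and 3 (3.95%) higher, against 17.8%. As deposited, their median difference was -0.42, against 0.0049 over all genes, their quartiles were -0.76 and 0.046, and the SD of the differences was 0.56 among the members and 0.80 among all genes. The medians with the GC trend removed were -0.42 and 0.0082. Summed over the 76 genes, 4465 FPKM in the untreated library compared with 3227 FPKM in the bort library, or 2.13% and 1.46% of each library's total. In bulk RNA, fewer cells of a type and less RNA per cell cannot be told apart.

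**Figure D1:**
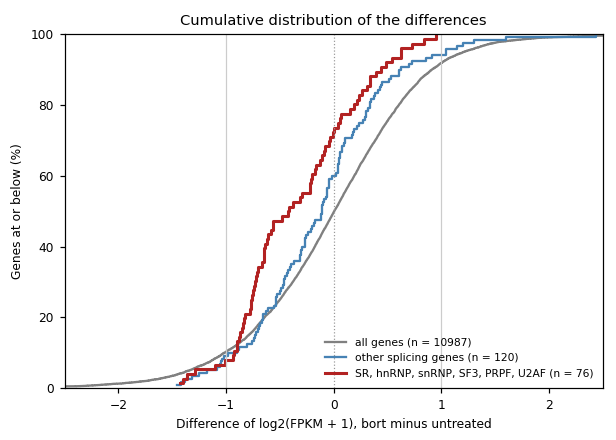
Cumulative share of genes (%) against the difference of log2(FPKM + 1), bort minus untreated, for all 10987 genes (grey), 120 other splicing genes (blue) and the 76 splicing factor genes (red). The red curve lies above the grey one through most of the range, with 72.4% of the members below 0.

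The members tended to be abundant genes, and abundant genes in general were somewhat lower in the bort library as deposited. Among the 3933 genes with a mean of at least 10 FPKM, 57.7% were lower and 30.2% lower by 1.5-fold or more, with a median of -0.15. The 66 members at that level included 51 that were lower (77.3%) and 32 that were lower by 1.5-fold or more (48.5%), with a median of -0.57. The members ranged from 1.04 FPKM (PRPF40B) to 288.2 FPKM (SNRPB) in the untreated library, with a median of 42.4 FPKM, and had a median of 32.2 FPKM in the bort library.

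**Figure D2:**
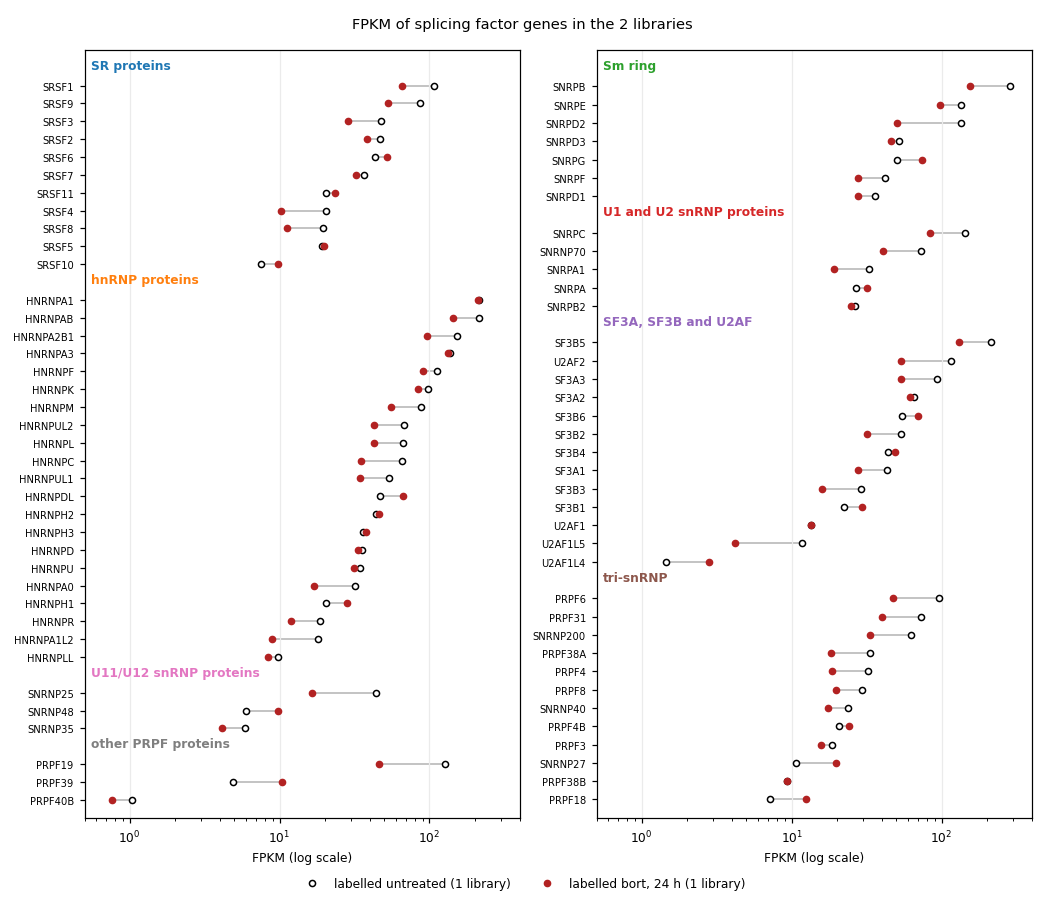
FPKM (log scale) of the members, all but 1 of them, in the untreated library (open circles) and the bort library (filled circles), grouped by role, 1 library each. For 55 genes the filled circle lies to the left of the open one.

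As the genes differed largely in the same direction, the promoters of some are shown for what they share. RefSeq (GRCh38.p14) gave a promoter for 66 of the 76 genes, taken here as the 250 bases before the first listed start. The 4 printed are the 2 lowest and the 2 highest members among those with a single listed start whose exons overlap no other gene in GENCODE 29, so some members with larger differences are not among them. PRPF19 (chr11:60906586-60906835, minus strand) and PRPF6 (chr20:63980882-63981131, plus strand) were lower in the bort library, and SNRNP48 (chr6:7589948-7590197, plus strand) and SF3B6 (chr2:24076327-24076576, minus strand) were higher as deposited, though nearly level with the GC trend removed (0.13 and 0.078). Each is written 5′ to 3′ on the strand of the gene, and capitals mark the letters of the motifs searched.
PRPF19: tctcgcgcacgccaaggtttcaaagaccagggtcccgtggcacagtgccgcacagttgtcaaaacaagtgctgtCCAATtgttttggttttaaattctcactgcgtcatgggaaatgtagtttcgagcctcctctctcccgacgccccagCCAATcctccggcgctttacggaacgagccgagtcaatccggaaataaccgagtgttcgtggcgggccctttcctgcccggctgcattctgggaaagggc
PRPF6: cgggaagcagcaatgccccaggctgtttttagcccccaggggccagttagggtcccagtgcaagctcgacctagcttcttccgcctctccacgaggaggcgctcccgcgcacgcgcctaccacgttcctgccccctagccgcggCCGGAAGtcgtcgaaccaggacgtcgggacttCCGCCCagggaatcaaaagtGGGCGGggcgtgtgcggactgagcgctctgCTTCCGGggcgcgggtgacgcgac
SNRNP48: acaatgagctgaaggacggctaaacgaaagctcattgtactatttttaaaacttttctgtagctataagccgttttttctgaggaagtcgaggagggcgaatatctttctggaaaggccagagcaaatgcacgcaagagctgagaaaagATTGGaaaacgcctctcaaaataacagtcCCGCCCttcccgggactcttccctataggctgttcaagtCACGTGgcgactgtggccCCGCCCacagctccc
SF3B6: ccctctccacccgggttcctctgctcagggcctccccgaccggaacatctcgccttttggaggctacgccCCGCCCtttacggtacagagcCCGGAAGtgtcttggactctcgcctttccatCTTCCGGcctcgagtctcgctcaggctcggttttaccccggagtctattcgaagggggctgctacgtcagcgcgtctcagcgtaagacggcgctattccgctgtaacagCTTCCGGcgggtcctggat
Both strands were searched for 8 short motifs, each spelled out where its count is given. The PRPF19 promoter held the NF-Y motif at 2 places and none of the others. The PRPF6 promoter held the ETS motif at 2 places and the Sp1 motif at 2, and the SF3B6 promoter held the ETS motif at 3 places and the Sp1 motif at 1. The SNRNP48 promoter held the Sp1 motif at 2 places, the NF-Y motif at 1 and the E-box at 1.

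Of the 66 members with a promoter, 23 (34.8%) held CCGGAAG, letters bound by ETS factors, against 17.7% of 8544 genes of the table and 8.52% of all 35116 RefSeq promoters of the same length. They were found in 11 of the 31 members lower by 1.5-fold or more and in 12 of the other 35. The NF-Y motif, CCAAT, was found in 30 members (45.5%), against 35.9% of genes of the table and 32.0% of all promoters. The Sp1 motif, GGGCGG, was found in 40 members (60.6%), against 69.7% of genes of the table and 42.6% of all promoters. The E-box CACGTG was found in 8 members (12.1%), against 9.45% of genes of the table and 6.34% of all promoters, in 1 of the 31 members lower by 1.5-fold or more and in 7 of the other 35. A pair of heat shock element units, GAANNTTC, was found in 5 members (7.58%), against 3.80% of genes of the table and 5.78% of all promoters, in 4 of the 31 and 1 of the other 35. The TATA box, searched as TATAAA, was found in 6 members (9.09%), against 4.95% of genes of the table and 10.7% of all promoters, in 3 of the 31 and 3 of the other 35. The YY1 motif, searched as ATGGCGG, was found in 3 members (4.55%), against 4.33% of genes of the table and 2.88% of all promoters, in 3 of the 31 and 0 of the other 35. The cyclic AMP response element TGACGTCA was found in 1 member (1.52%), against 3.16% of genes of the table and 1.65% of all promoters, outside the 31. A match describes letters in the window and is neither a shown binding site nor a cause of a difference.

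The SR proteins carry an RNA recognition motif and a domain rich in arginine and serine, through which they recruit other splicing factors. Of 11 SR protein genes, 7 were lower and 4 higher, 5 of them lower by 1.5-fold or more and 0 higher by that much, with a median of -0.29. The median was -0.51 with the GC trend removed, when 10 of the 11 were lower, and -0.18 when the 20 most abundant genes were left out of the total used for scaling. SRSF1, which binds exonic enhancers and was the most abundant of the group, was at 107.3 FPKM in the untreated and 65.7 FPKM in the bort library, a difference of -0.70. In GENCODE 29, however, 58.5% of its 50-base stretches also occur in the overlapping gene AC015813.2, so its value is uncertain where fragments could go to either gene. As deposited, SRSF4 had the lowest difference of the group, at 20.5 FPKM untreated and 10.3 FPKM with bort (-0.93). SRSF3, which also takes part in mRNA export, was at 47.8 and 28.4 FPKM (-0.73), and was the lowest with the GC trend removed (-1.16). The remaining genes lower by 1.5-fold or more as deposited were SRSF8 and SRSF9, of which SRSF9 was at -0.56 with the GC trend removed, short of 1.5-fold. Of the exon bases of SRSF9, 46.2% overlap GATC on the other strand. SRSF2, of whose exon bases 36.7% overlap other genes, was at 46.9 FPKM untreated and 38.1 FPKM with bort (-0.29). SRSF10, which represses splicing when dephosphorylated, had the highest difference of the group as deposited, at 7.54 and 9.81 FPKM (0.34). This direction turned with the GC trend removed, to -0.24, as did those of SRSF6 and SRSF11, also higher as deposited, to -0.16 and -0.29. Summed over the 11 genes, the FPKM in the bort library was 0.754 times that in the untreated library.

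The hnRNP proteins package nascent transcripts and act in splicing, export and stability of mRNA. Of 21 hnRNP genes, 17 were lower and 4 higher, 9 of them lower by 1.5-fold or more (with the GC trend removed 19 were lower, 6 of them by 1.5-fold), with a median of -0.31, or -0.19 when the 20 most abundant genes were left out of the total. HNRNPA1, a splicing repressor and the most abundant of the group, was nearly level, at 215.4 FPKM untreated and 210.4 FPKM with bort (-0.034). Its direction was not kept under other scalings: it was 0.08 without the 20 most abundant genes in the total and 0.07 with upper quartile scaling. It was -0.27 with the GC trend removed. HNRNPA1L2, an HNRNPA1-like gene, had the lowest difference of the group as deposited, at 17.9 and 8.93 FPKM (-0.93). Since 47.6% of its 50-base stretches also occur in HNRNPA1, the values of both genes are uncertain. Their sum was 233.3 FPKM untreated and 219.3 FPKM with bort (-0.089). HNRNPA2B1, a close relative, was at 152.4 and 96.8 FPKM (-0.65). HNRNPC, which binds uridine tracts and packages pre-mRNA, was at 65.3 FPKM untreated and 35.0 FPKM with bort (-0.88), and was the lowest with the GC trend removed (-1.32). HNRNPDL had the highest difference as deposited, at 46.9 and 66.3 FPKM (0.49), whereas with the GC trend removed HNRNPH1 was higher (0.56, against 0.33). The other genes that were higher as deposited were HNRNPH1, HNRNPH2 and HNRNPH3, which bind runs of guanines, and with the GC trend removed HNRNPH2 turned to -0.21 and HNRNPH3 to -0.34. The abundant part of the group thus held both genes that were nearly level and genes lower by 1.5-fold or more, and the summed FPKM in the bort library was 0.803 times that in the untreated library, the highest such ratio among the 8 roles.

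The Sm proteins form a ring around the snRNA of the U1, U2, U4 and U5 particles. Of 7 Sm genes, 6 were lower and 1 higher, with a median of -0.48, or -0.74 with the GC trend removed. SNRPD2 was at 134.9 FPKM in the untreated and 50.7 FPKM in the bort library (-1.40), lower by more than 2-fold. SNRPB, the most abundant of all members in the untreated library, was at 288.2 and 154.4 FPKM (-0.90, or -0.54 with the GC trend removed). SNRPE was at 135.5 FPKM untreated and 97.1 FPKM with bort (-0.48, or -0.93). SNRPG was the gene that was higher, at 50.3 and 73.8 FPKM (0.54, or 0.13). The Sm proteins are present in equal numbers in a ring, whereas the FPKM of their genes ranged from 36.0 to 288.2 FPKM in the untreated and from 27.5 to 154.4 FPKM in the bort library.

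Among the proteins particular to the U1 and U2 snRNPs, 4 of 5 genes were lower, with a median of -0.74, the lowest of the 8 roles as deposited; with the GC trend removed it was -0.61 and that of the Sm genes -0.74. SNRPC, a U1 protein that stabilises pairing with the start of the intron, was the most abundant, at 142.5 FPKM untreated and 83.4 FPKM with bort (-0.77). SNRNP70, the U1 protein contacted by SR proteins, had the lowest difference as deposited, at 72.7 and 40.4 FPKM (-0.83). With the GC trend removed it was -0.26, short of 1.5-fold, and SNRPA1 was the lowest (-0.83). SNRPA, which binds a stem-loop of U1 snRNA, was the gene that was higher, at 26.9 FPKM untreated and 31.9 FPKM with bort (0.24, or 0.60 with the GC trend removed). U1 genes therefore differed in direction among themselves. Of the U2 genes, SNRPA1 was at 32.7 and 19.1 FPKM, a value that is uncertain because 41.5% of its 50-base stretches occur in other genes. SNRPB2 was at 26.5 and 24.8 FPKM (-0.093). Its direction turned with upper quartile scaling and without the 20 most abundant genes in the total, while it was -0.61 with the GC trend removed.

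SF3A and SF3B are the subcomplexes of the U2 snRNP that hold the branch point, and U2AF recognises the pyrimidine tract and the end of the intron. Of these 13 genes, 9 were lower and 4 higher, with 7 lower and 1 higher by 1.5-fold or more and a median of -0.61. With the GC trend removed, 8 were lower and 5 higher, with 4 lower and 2 higher by 1.5-fold or more and a median of -0.41. As deposited, the 3 SF3A genes were lower, and 3 of the 6 SF3B genes were lower and 3 higher. SF3A2 (-0.11) turned to 0.59 with the GC trend removed, and also turned without the 20 most abundant genes in the total. SF3B5, a small subunit and the most abundant gene of the group, was at 214.5 FPKM untreated and 129.8 FPKM with bort (-0.72, or -0.41 with the GC trend removed, short of 1.5-fold). SF3B1, the large subunit that contacts the branch point and is recurrently mutated in myeloid neoplasms, was at 22.4 and 29.6 FPKM (0.39, or 0.052 with the GC trend removed). SF3B6, whose promoter is printed above and which lies at the branch point, was at 54.4 FPKM untreated and 69.2 FPKM with bort (0.34, or 0.078).

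U2AF2, the large subunit of U2AF that binds the pyrimidine tract, was at 115.7 FPKM in the untreated and 53.5 FPKM in the bort library (-1.10). This was lower by 2-fold or more as deposited, and not with the total without the 20 most abundant genes (-0.99), upper quartile scaling (-0.99) or the GC trend removed (-0.64). The small subunit gene U2AF1 was at 13.5 and 13.4 FPKM (-0.0087), a direction that turned with upper quartile scaling and without the 20 most abundant genes in the total. U2AF1L5, a near-identical copy, was at 11.6 FPKM untreated and 4.16 FPKM with bort (-1.29). As 93.8% of the 50-base stretches of either gene also occur in the other, fragments cannot be assigned to them reliably. Their sum was 25.1 FPKM untreated and 17.6 FPKM with bort (-0.49). U2AF1L4, a small subunit paralogue at low level, was at 1.46 and 2.81 FPKM (0.63). Its value is uncertain too, since 42.9% of its stretches are shared with AD000671.2.

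The tri-snRNP brings in the catalytic snRNAs. Of 12 genes of the tri-snRNP and its partners, 8 were lower and 4 higher, with 5 lower and 2 higher by 1.5-fold or more and a median of -0.49. With the GC trend removed, 10 were lower and 2 higher, with 4 lower and 0 higher by 1.5-fold or more and a median of -0.43. PRPF6, which bridges the U5 particle and the U4/U6 pair, was the most abundant and had the lowest difference as deposited, at 96.7 FPKM untreated and 47.5 FPKM with bort (-1.01). It stood at the 2-fold threshold and fell short of it with the total without the 20 most abundant genes (-0.90), upper quartile scaling (-0.90) and the GC trend removed (-0.68), when PRPF38A was the lowest (-1.23). SNRNP200, the helicase that unwinds U4 from U6, was at 62.9 and 33.4 FPKM (-0.89). PRPF8, the scaffold of the catalytic core, was at 29.6 FPKM untreated and 19.7 FPKM with bort (-0.56). The genes that were higher by 1.5-fold or more as deposited were of lower level, and with the GC trend removed neither passed 1.5-fold. SNRNP27, a tri-snRNP protein with an arginine and serine rich domain, was at 10.6 and 19.8 FPKM (0.84, or 0.39 with the GC trend removed). PRPF18, which acts at the final catalytic step, was at 7.17 FPKM untreated and 12.6 FPKM with bort (0.73, or 0.35). AL157392.5 shares 42.5% of the stretches of PRPF18, so that value is uncertain.

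The 3 genes of the minor spliceosome, whose U11/U12 particle recognises a rare class of introns, differed in direction. SNRNP25 was at 43.9 FPKM in the untreated and 16.5 FPKM in the bort library (-1.36), and at -0.94 with the GC trend removed. SNRNP48, which contacts the start of these introns, was at 5.93 and 9.70 FPKM (0.63, or 0.13 with the GC trend removed). SNRNP35, of whose exon bases 40.1% overlap another gene, was at 5.86 FPKM untreated and 4.14 FPKM with bort (-0.42).

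Of the 4 remaining PRPF genes, 2 were lower and 2 higher, and they included both the lowest and the highest difference of all 76 members as deposited. PRPF19, a ubiquitin ligase at the core of the complex that activates the spliceosome, was at 126.5 FPKM untreated and 46.3 FPKM with bort (-1.43). It shares no 50-base stretch with another gene and no exon base overlaps one. It was also lower by 2-fold or more with the GC trend removed (-1.12). PRPF39, a U1-associated protein, was at 4.89 FPKM untreated and 10.4 FPKM with bort (0.95). This passed 2-fold with a smaller pseudocount or none, with upper quartile scaling and without the 20 most abundant genes in the total. With the GC trend removed it was 0.40, short of 1.5-fold, and U2AF1L4 was the highest member at 0.94. In GENCODE 29, 13.2% of the exon bases of PRPF39 overlap FKBP3 on the other strand, and strand use in counting is not given in the sources used here. PRPF40B, of whose exon bases 48.7% overlap other genes, was at 1.04 FPKM untreated and 0.767 FPKM with bort (-0.21), and turned to 0.18 with the GC trend removed.

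**Figure D3:**
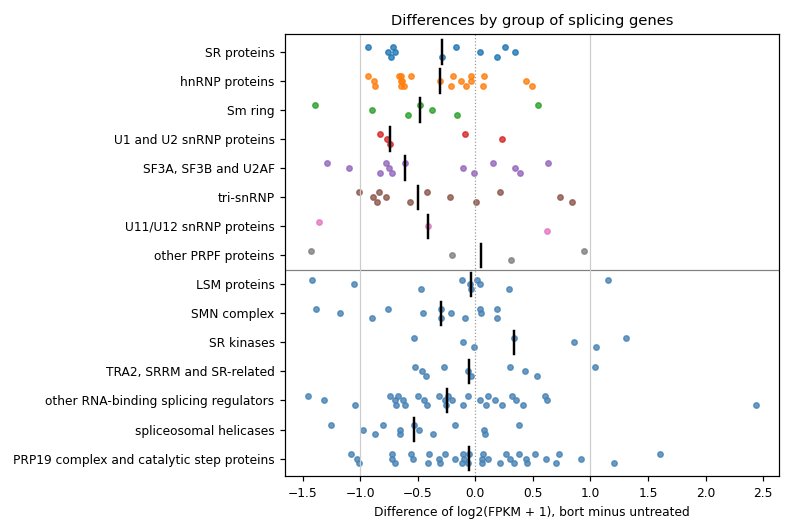
Difference of log2(FPKM + 1), bort minus untreated, of each gene by group, with the members' 8 roles above the line and 7 lists of other splicing genes under it; bars are medians and grey lines mark 2-fold. Medians of 7 roles lie under 0, and that of the other PRPF genes, 0.053, changes sign with the pseudocount and with the GC trend removed; PRPF6 and U2AF2 pass the 2-fold line as deposited but not under every scaling.

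The differences followed the base composition of the transcripts. Across 10907 genes the Spearman correlation of GC content with the difference was -0.49, and across the 76 members it was -0.44; genes of a library are not independent replicates. For transcript length the correlations were 0.17 and 0.050. Within 3 ranges of GC content, split to hold like numbers of members, the members were lower more often than all genes of the same range. Between 35.3% and 41.2% GC, 6 of 25 members (24.0%) were lower by 1.5-fold or more, against 3.52% of 2015 genes in that range. Between 41.2% and 51.4% GC this was 10 of 25 members (40.0%), against 12.7% of 4001 genes. Between 51.4% and 66.6% GC it was 17 of 26 members (65.4%), against 36.1% of 4481 genes. With the trend removed, the median of the members was -0.42 and their correlation with GC content 0.11. Of the 12 members then lower by 2-fold or more, PRPF19, SNRPD2 and U2AF1L5 were also among the 6 as deposited. The others were HNRNPA0, HNRNPA1L2, HNRNPA2B1, HNRNPC, HNRNPR, PRPF38A, SNRPF, SRSF1 and SRSF3.

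Of 122 other genes that act in splicing, 120 were listed, 72 of them lower and 48 higher as deposited, with a median of -0.11. After removal of the GC trend, 91 (75.8%) were lower and 29 higher, with a median of -0.23, so that the share lower came near that of the members. As deposited, 27 (22.5%) were lower by 1.5-fold or more, against 21.6% of all genes, and 14 (11.7%) higher, against 20.8%. These were, after that removal, 25 (20.8%), against 17.1%, and 7 (5.83%), against 17.8%. The lowest and the highest gene of each list below are those as deposited. The spliceosomal helicases had the lowest median as deposited, -0.54, with 10 of 13 lower. With the GC trend removed, the median of the list named for the SMN complex was lower (-0.42, against -0.34), and 12 helicase genes were lower. DDX39B was at 53.3 FPKM untreated and 21.8 FPKM with bort (-1.25), and DDX5 at 55.9 and 72.8 FPKM (0.38, or 0.23 with the GC trend removed). In a list named for the SMN complex, which loads Sm rings, 9 of 13 genes were lower (median -0.29), from GEMIN5 (-1.38) to DDX20 (0.19). The list also holds PRMT5, WDR77 and CLNS1A, which are not subunits of that complex. All 13 genes of the list were lower with the GC trend removed, DDX20 turning to -0.42. SMN1 (0.043, or -0.25 with the GC trend removed) and SMN2 (-0.30, or -0.60) are near-identical copies counted separately, so the value of each is uncertain. Of 30 other RNA-binding regulators, 19 were lower (median -0.25), or 22 with the GC trend removed (-0.26), from PUF60 at 46.6 and 16.3 FPKM (-1.46, or -0.94 with the GC trend removed) to MBNL2 at 0.888 and 9.25 FPKM (2.44, or 1.89). A list of 37 genes, named for the PRP19 complex and the catalytic steps, also holds genes of other spliceosomal particles, PPIH among them. Its genes were nearly evenly divided as deposited, with 19 lower (median -0.059), but with the GC trend removed 24 were lower and 13 higher (median -0.20). They ranged from PPIH at 93.2 and 43.5 FPKM (-1.08) to CDC40 at 1.77 and 7.40 FPKM. The 10 LSM genes, among them those of the ring of U6, had a median of -0.042, or -0.21 with the GC trend removed when 8 were lower, from LSM4 at 96.5 and 35.5 FPKM (-1.42) to LSM3 at 18.2 and 41.6 FPKM (1.15). The 10 TRA2, SRRM and SR-related genes had a median of -0.053, from SRRM2 (-0.52) to PPIG at 17.9 and 37.8 FPKM (1.04). When the GC trend was removed the median was -0.097 with 9 lower, SRRM2 was at -0.22, and PPIG was at 0.39, short of 1.5-fold. The 7 kinases of SR proteins had a median of 0.34, or 0.25 with the GC trend removed, with CLK2 at 17.6 and 11.8 FPKM (-0.54, or -0.25) and CLK1 at 3.25 and 9.51 FPKM (1.31). Of these kinase genes, 4 were higher and 3 lower, both as deposited and with the GC trend removed. The SR protein genes and the genes of their kinases thus had medians of opposite sign, the latter over a near-even split.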

How the data were processed

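RNA was sequenced from 2 libraries, 1 per group. According to the supplementary methods the authors used HISAT2 2.0.4 for alignment and StringTie 1.2.3 to assemble transcripts. The values deposited by the authors are FPKM per gene according to the file header, while the file name speaks of raw counts, and they were treated as FPKM. The submitters' processing notes name GRCh37; the annotation is not given in the sources used here. The methods describe a stranded KAPA kit and the labels a TruSeq kit. Depth is unknown, so intervals and detection limits are left out, and no test was made.

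Differences of log2(FPKM + 1) were computed with pandas 2.3.3 and numpy 2.4.6 under Python 3.11.15, with statsmodels 0.14.6 and scipy 1.17.1, drawn with matplotlib 3.10.9, and tested on simulated data. GC content, length, shared 50-base stretches and exon overlaps came from GENCODE 29 (another build, 99.3% of genes matched), and the GC trend was removed by lowess with a span of 0.3. Alternatives were pseudocounts of 0.1 and 0.5 FPKM or none, a filter at 1 FPKM, 3 other scalings, GC removal, thresholds of 1.5-fold and 4-fold, and only protein-coding symbols of the role lists.

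The members and lists were chosen with earlier results of these data known. Named genes are the members past 2-fold, the lowest, the highest and the most abundant of each role, the lowest and highest of each list of other splicing genes, and near-identical copies. SRSF2, SRSF3, SRSF6, SRSF8, SRSF9, SRSF11, HNRNPA2B1, HNRNPA3, HNRNPC, HNRNPD, HNRNPH1, HNRNPH2, HNRNPH3, SNRPE, SNRPA1, SNRPB2, SF3A2, SF3B1, SF3B6, SNRNP200, PRPF8, PRPF18, PRPF38B, SNRNP35, PRPF40B and the further members past 2-fold with the GC trend removed were named after their values were seen. Also chosen then were the counts at 1.5-fold as a leading result, the split by GC content, the comparison at 10 FPKM, the motifs, and the promoters printed, whose selection rule was changed after the results were known. The level of 1 member is not reported here, though it counts in the totals. Protein features were planned but not computed, as no protein sequences were used here. The role lists also held HNRNPA1L3, HNRNPCL1, SF3B14, SNRPN and SRSF12, which have no row in the table used here.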

Additional observations from a re-analysis of the deposited data

How the results depend on the processing

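The direction of the members' median was kept under every alternative run, and its distance from the median of all genes lay between -0.47 and -0.42. Of these alternatives, the thresholds do not enter the median and the restriction to protein-coding symbols kept all 76 members, so neither could change it. Scaling to the total without the 20 most abundant genes gave a median of -0.32, with the median of all genes shifted to 0.10 (0.09 with upper quartile scaling). The members higher by 2-fold or more numbered 1 (PRPF39) with this scaling, with upper quartile scaling, with pseudocounts of 0.1 and 0.5 FPKM and with none, and 5 at a threshold of 1.5-fold. The members lower by 2-fold or more numbered 12 with the GC trend removed, 33 at 1.5-fold and 0 at 4-fold, which 135 of all 10987 genes passed downward. With both of these scalings 4 were lower by 2-fold or more and 26 by 1.5-fold or more (34.2%), against 19.0% and 19.1% of all genes. With the GC trend removed, the members higher by 1.5-fold or more numbered 3 (U2AF1L4, SNRPA and SF3A2), of which U2AF1L4 was among the 5 as deposited, and those lower by 1.5-fold or more 27, from 33. Without U2AF1, U2AF1L5, HNRNPA1 and HNRNPA1L2, an alternative chosen after the data were seen, 5 were lower by 2-fold or more and 31 by 1.5-fold or more, of 72. Over all genes, the 2-fold threshold was passed by 888 upward and 1125 downward as deposited, 1120 and 939 with the total without the 20 most abundant genes, and 754 and 666 with the GC trend removed. Without a pseudocount these were 1654 and 1708. Direction turned for 10 of the 76 members with the GC trend removed, among them HNRNPH2, HNRNPH3, SF3A2, SRSF6, SRSF10, SRSF11 and PRPF40B. It turned for HNRNPA1, HNRNPA3, HNRNPD, SNRPB2 and U2AF1 under both scalings, and for SF3A2 also without the 20 most abundant genes. With the median of ratios PRPF38B turned. A pseudocount or the filter cannot turn the direction of a gene, so these settings are no check of it. Of 80 medians of roles 77 kept their direction, the exceptions all being the other PRPF genes. The 80 include those under the protein-coding restriction, which could not change. The cause of these changes was not tested. No library could be left out with 1 per group. No paired analysis was possible because each group holds 1 library. Unknown depth limits what can be said of genes at low FPKM.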
